A study of Mus musculus with 12 samples.

Results

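The genes described here encode the acetylcholine receptor of skeletal muscle and the proteins that gather it under the nerve ending. They were chosen by symbol and number 10 of the 24421 entries of the count table: 5 receptor subunits (Chrna1, Chrnb1, Chrnd, Chrne and Chrng) and 5 genes of receptor clustering (Agrn, Lrp4, Musk, Dok7 and Rapsn). All 10 passed the filter on low counts, as did 13937 genes of the whole table. RNA of the tibialis anterior, a fast muscle of the lower hindlimb, was sequenced in 12 libraries from male mice aged 4 months. The WT group holds 6 libraries of the strain C57Bl/6. The mdx/mTR group holds 6 libraries of animals labelled with the mdx allele of the dystrophin gene Dmd together with mTR, which denotes the mouse telomerase RNA gene (Terc). No group carries either allele alone, so effects of the 2 alleles cannot be told apart, and neither the breeding generation nor the background of the mdx/mTR animals is given in the sources used here. The labels do not say in words that each library is a different animal, so p-values measure the spread between these libraries.

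The receptor is a channel of alpha, beta and delta subunits joined by either a gamma or an epsilon subunit. Fetal muscle uses gamma (Chrng), and epsilon (Chrne) takes its place at the adult junction. The gamma form is known to return along the fibre after loss of the nerve and in regenerating fibres. Clustering starts with agrin, which binds Lrp4 and so activates the receptor kinase MuSK. The adaptor Dok7 is needed for MuSK activity, and rapsyn (Rapsn) ties receptors together at the membrane.

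Sequencing depth was 36903560 to 40981012 counts per WT library and 35136327 to 60330410 per mdx/mTR library. Levels are given as CPM, counts per unit of library size after scaling by the trimmed mean of M-values (TMM). Where a gene has 0 counts, its true level can be up to about 3 counts, or 0.0460 to 0.0837 CPM depending on the library; this limit and the intervals on counts cover counting error only. Dmd, the gene of the mdx allele, stood at 228 to 244 CPM in WT, against 35.2 to 56.4 CPM in mdx/mTR. Terc had 2 counts in 1 WT library and 0 in all others, so its loss could not be examined. As a check of the labelled tissue, 8 markers of mature fast fibres summed to 182926 to 214919 CPM per WT library and 145287 to 201405 CPM per mdx/mTR library.

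All 5 receptor subunits rose in mdx/mTR, and none of the 5 clustering genes passed the test in either direction. Over all 13937 genes tested, 48.3% passed (edgeR quasi-likelihood test, Benjamini-Hochberg adjusted p below 0.05), 25.0% as higher and 23.4% as lower. Of these calls 51.6% were higher; with libraries scaled only by their totals the share was 78.2%, the median log2 fold change of the table moved to 0.17, and Lrp4 and Dok7 passed as higher beside the 5 subunits. The median log2 fold change was 0.99 over the 5 subunits and 0.05 over the 5 clustering genes, against 0.01 over all genes tested. The rises were of unequal size, from 1.31-fold for Chrne to 56.0-fold for Chrng. A rise of at least 2-fold was found for 2 of the 10 genes, Chrng and Chrna1, and for 7.24% of all genes tested. In bulk tissue, more fibres that express a gene and more RNA per fibre cannot be told apart.

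**Figure D1:**
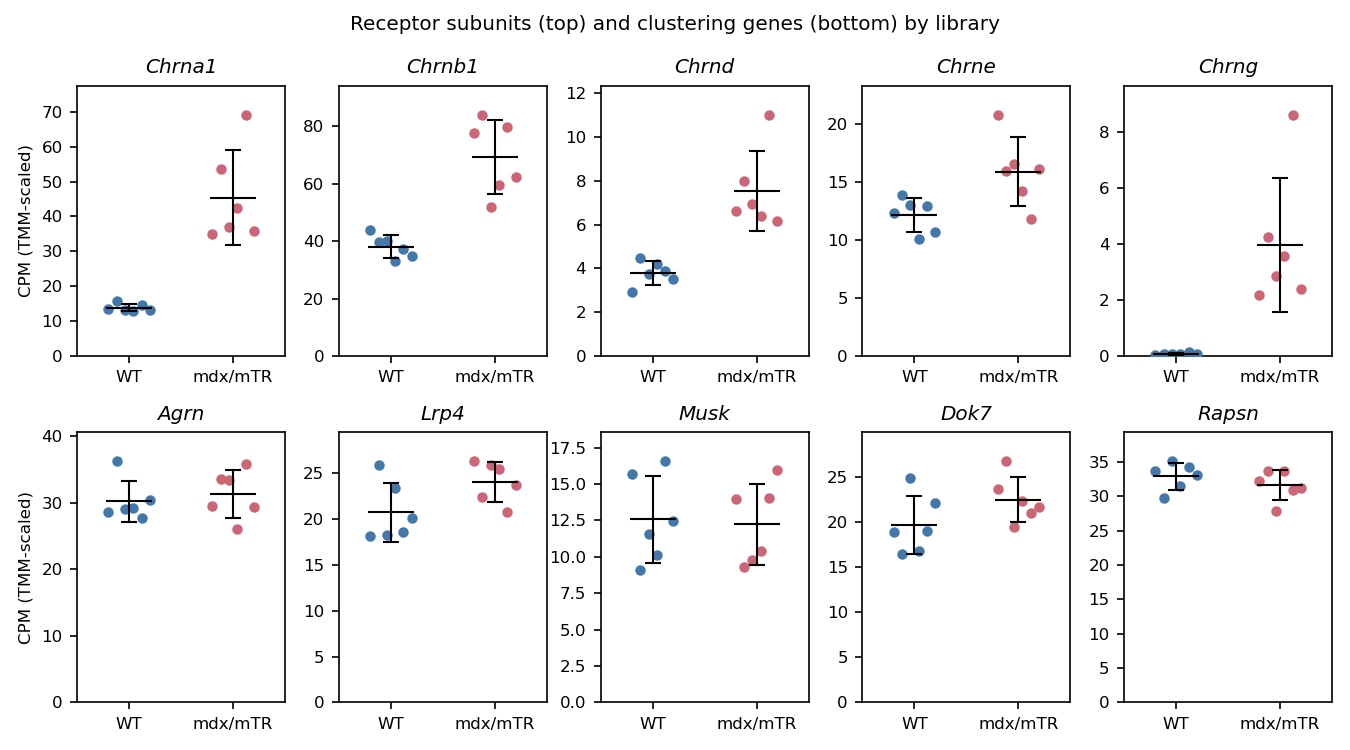
Level of each gene (CPM, linear axis from 0) in the 6 WT (blue) and 6 mdx/mTR (red) libraries, with the group mean and SD as bars. The mdx/mTR points lie above every WT point for Chrna1, Chrnb1, Chrnd and Chrng, while the points of both groups share a range for the other 6 genes.

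Chrng, the fetal gamma subunit, was close to absent in WT and present in every mdx/mTR library. WT replicates 1 to 6 had 1, 2, 2, 2, 6 and 2 counts, and mdx/mTR replicates 1 to 6 had 124, 277, 104, 174, 404 and 145. As levels, the WT libraries spanned 0.0278 to 0.157 CPM, and 5 of the 6 had 3 counts or fewer. In mdx/mTR the levels were 2.16, 4.25, 2.84, 3.56, 8.60 and 2.37 CPM. The groups did not overlap, and mdx/mTR replicate 5 was the highest library. Its mean level was 0.0673 ± 0.0451 CPM in the WT libraries and 3.96 ± 2.40 CPM in those of mdx/mTR (SD over 6). The log2 fold change was 5.81, with an SE of 0.48 and an edgeR adjusted p of 1.2e-06. The 95% interval of the fold was 27.6 to 114. Chrng passed the filter on low counts only through the mdx/mTR libraries, and its fitted fold rests on WT counts near 0. From counts summed over each group, 1228 against 15, the ratio was 57.1 with an exact 95% counting interval of 34.5 to 102. Without WT replicate 5, which held 6 of the 15 WT counts, the ratio was 78.6 (41.3 to 172).

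Chrna1, the alpha subunit that carries the acetylcholine binding site, had the next largest rise. The WT libraries stood at 13.6, 15.8, 13.2, 12.9, 14.6 and 13.2 CPM in replicates 1 to 6. The mdx/mTR libraries stood at 35.0, 53.5, 36.8, 42.3, 69.1 and 35.7 CPM. Every mdx/mTR library had more than any WT library, and replicate 5 was again the highest. The fold change was 3.27 (95% interval 2.60 to 4.13; log2 fold change 1.71 ± 0.16 SE, edgeR adjusted p 2.7e-06). Of its 50-base stretches, the annotated Chrna1 transcript shares 3.02% with transcripts of other genes, and the other 9 genes share 0%.

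Chrnd, the delta subunit, stood at 2.92, 4.49, 3.75, 4.19, 3.89 and 3.501 CPM in WT replicates 1 to 6 and at 6.62, 7.98, 6.94, 6.39, 11.01 and 6.17 CPM in mdx/mTR. The groups did not overlap, and mdx/mTR replicate 5 was the highest. Its fold change was 1.98 (95% interval 1.59 to 2.47; log2 fold change 0.99 ± 0.15 SE, edgeR adjusted p 1.3e-04). Chrnd and Chrng are neighbours on chromosome 1 in GRCm38, on the same strand, with 4586 bases between their annotated ends (Chrnd at chr1:87190607-87200070, Chrng at chr1:87204657-87212694, GENCODE M21). The 2 neighbours rose by unequal amounts, as the tests of their ratio show further on.

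Chrnb1, the beta subunit, had the highest level per length of the 5 in both groups. It stood at 43.8, 39.7, 40.1, 33.1, 37.2 and 34.7 CPM in WT and at 77.8, 84.0, 52.0, 59.5, 79.9 and 62.5 CPM in mdx/mTR. The groups did not overlap, with mdx/mTR replicate 3 the lowest of its group. Its fold change was 1.82 (95% interval 1.54 to 2.16; log2 fold change 0.86 ± 0.11 SE, edgeR adjusted p 4.6e-05).

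Chrne, the adult epsilon subunit, rose least. The WT libraries stood at 12.4, 13.9, 13.0, 10.1, 12.9 and 10.7 CPM, and the mdx/mTR libraries at 20.8, 15.9, 16.6, 14.2, 11.8 and 16.1 CPM. The groups overlapped: 5 of 6 mdx/mTR libraries lay above all WT libraries, and replicate 5 lay within the WT range. The fold change was 1.31 (95% interval 1.10 to 1.56; log2 fold change 0.39 ± 0.12 SE, edgeR adjusted p 0.016), which does not pass a threshold of 0.01. Groups without overlap and higher in mdx/mTR were thus found for 4 of the 5 subunits, where 12.6% of all genes tested show that pattern. By CPM, the library with the most Chrng, mdx/mTR replicate 5, had the least Chrne of its group, and the mdx/mTR library with the least Chrng, replicate 1, had the most Chrne.

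**Figure D2:**
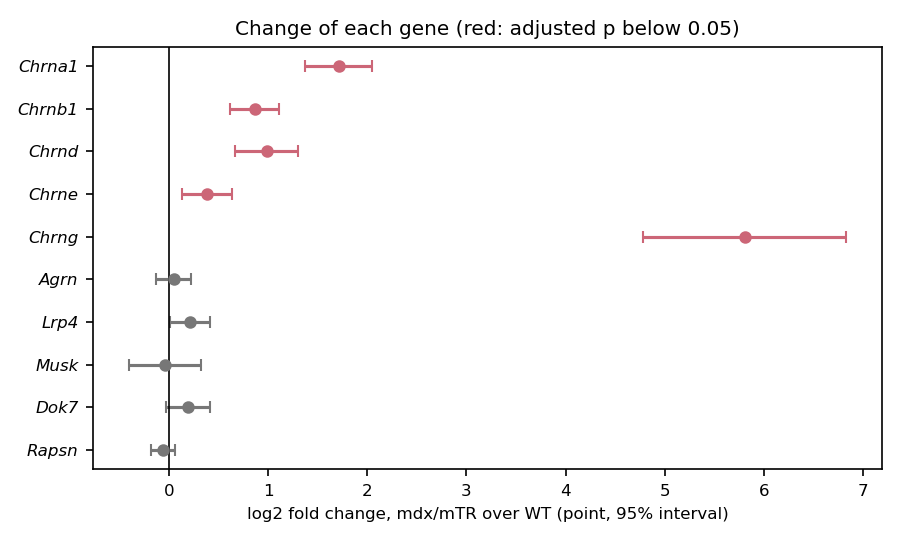
Log2 fold change of each gene, mdx/mTR over WT, with its 95% interval from the edgeR fit; red points passed an adjusted p of 0.05 and grey points did not. The 5 subunits lie to the right of 0, from 0.39 (Chrne) to 5.81 (Chrng), and the 5 clustering genes lie between -0.06 and 0.22.

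The exchange of gamma and epsilon was examined as the ratio of Chrng to Chrne counts within each library, which does not depend on scaling between libraries. In WT replicates 1 to 6, Chrng made up 0.224%, 0.400%, 0.425%, 0.522%, 1.20% and 0.509% of the summed Chrng and Chrne counts. In mdx/mTR replicates 1 to 6 it made up 9.42%, 21.1%, 14.6%, 20.0%, 42.2% and 12.9%. The highest WT share had a 95% Wilson interval of 0.551% to 2.59%, and the lowest mdx/mTR share one of 7.96% to 11.1%, so no intervals of the 2 groups met. The share averaged 0.547% with an SD of 0.337 over the WT libraries and 20.04% with an SD of 11.7 over those of mdx/mTR. On the log2 scale with 0.5 added to each count, the ratio was -7.37 ± 0.65 in WT and -2.15 ± 0.97 in mdx/mTR. The difference of 5.22 is a 37.2-fold higher ratio (two-sided exact permutation p 0.0022, the smallest that 6 against 6 allows), and the order held in 6 of 6 mdx/mTR libraries against all WT libraries. The WT ratios rest on 1 to 6 Chrng counts a library, so the size of this difference depends on the 0.5 added.

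In absolute terms Chrne counts outnumbered Chrng counts in every library of both groups. For each Chrng count, WT libraries held 82.3 to 445 Chrne counts and mdx/mTR libraries held 1.37 to 9.61. Because the Chrng transcript is the longer, 2780 against 1616 bases for the longest annotated coding transcripts, the share per length was lower: 0.319% ± 0.197 for WT libraries and 13.1% ± 8.67 for mdx/mTR (SD over 6). With the union of annotated exons as the length, a choice made after seeing the data, the mdx/mTR share was 9.68% ± 6.80.

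**Figure D3:**
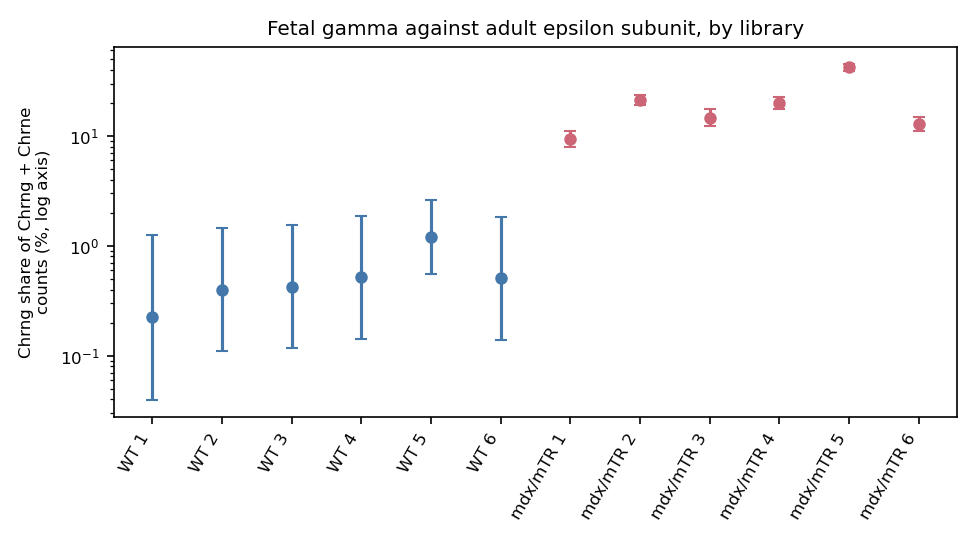
Share of Chrng in the summed Chrng and Chrne counts of each library (percent, log axis), with 95% Wilson intervals for counting error. The WT libraries lie at 0.224% to 1.20% and the mdx/mTR libraries at 9.42% to 42.2%, with mdx/mTR replicate 5 the highest.

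The 5 subunits also changed relative to each other. Of the 10 ratios between subunits, 9 differed between the groups (exact permutation tests, Benjamini-Hochberg adjusted over all 45 pairs of the 10 genes). The 10 ratios share genes and so are not independent tests, and those with Chrng rest on WT counts near 0. How many ratios between other genes would pass was not computed, while 48.3% of single genes tested did. Relative to Chrng, Chrna1 fell by 3.92 (log2), Chrnb1 fell by 4.74 and Chrnd fell by 4.62, and Chrng rose over Chrne by 5.22. Chrna1 rose over Chrnb1 by 0.82, over Chrnd by 0.70 and over Chrne by 1.29 (exact permutation, adjusted p 0.0041 for each of these 7 ratios). Chrne fell behind Chrnb1, with a Chrnb1 over Chrne difference of 0.47 (exact permutation, adjusted p 0.015). Its difference from Chrnd was 0.60 (exact permutation, adjusted p 0.031), a call lost in 7 of the 12 tests that each left out 1 library. Those 7 were WT replicates 1, 3 and 5 and mdx/mTR replicates 2, 3, 4 and 5, and the adjusted p reached 0.063. The ratio of Chrnb1 to Chrnd did not pass: it was 3.33 ± 0.32 for WT and 3.21 ± 0.28 for mdx/mTR (log2, SD over 6; exact permutation, adjusted p 0.54), a difference smaller than the spread in either group.

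Per length of transcript, the make-up of the subunit RNA moved from epsilon towards alpha. Levels per length are CPM per kilobase of the longest annotated coding transcript, here summed over the 5 subunits. The sum was 29.7 ± 2.65 in WT and 56.3 ± 8.90 in mdx/mTR, and the ranges, 26.0 to 32.2 and 46.1 to 67.0, did not overlap. Chrnb1 made up 59.5% ± 2.21 of it in WT and 56.9% ± 3.002 in mdx/mTR. Chrne made up 25.3% ± 1.30 and 17.9% ± 4.28, with ranges of 23.9% to 26.7% and 10.9% to 22.2%. Chrna1 made up 10.7% ± 0.781 and 18.3% ± 3.40, with ranges of 9.64% to 11.3% and 13.3% to 23.5%. Chrnd made up 4.37% ± 0.784 and 4.52% ± 0.682, and Chrng 0.0821% ± 0.0543 and 2.46% ± 1.16 (SD, n = 6 each). Only the shares of Chrna1, Chrne and Chrng had ranges that did not overlap, as far as these 5 shares were compared, and they were not tested as shares.

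The DNA just before the transcription start of 4 subunit genes is shown because these genes rose by such different amounts and because muscle promoters of this kind are known to hold E-boxes, bound by myogenic factors such as MyoD and myogenin, and N-boxes, bound by ETS factors at synaptic nuclei. Each line gives the 250 bases before the start in RefSeq (GRCm38.p6), read in the direction of transcription. Capitals mark an E-box (CANNTG, the same on both strands) or an N-box (CCGGAA, or TTCCGG for the other strand). The windows are chr1:87205561-87205810 on the plus strand for Chrng, chr2:73580339-73580588 on the minus strand for Chrna1, chr11:69795938-69796187 on the minus strand for Chrnb1 and chr11:70619195-70619444 on the minus strand for Chrne. The annotated GENCODE genes of Chrng, Chrnb1 and Chrne begin upstream of these RefSeq starts, so their windows overlap the GENCODE gene in part or, for Chrng, in full.
Chrng: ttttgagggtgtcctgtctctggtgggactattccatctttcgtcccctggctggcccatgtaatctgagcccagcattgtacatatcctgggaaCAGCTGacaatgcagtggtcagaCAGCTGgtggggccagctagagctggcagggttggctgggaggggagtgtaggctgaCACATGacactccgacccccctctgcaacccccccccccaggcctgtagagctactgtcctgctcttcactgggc
Chrna1: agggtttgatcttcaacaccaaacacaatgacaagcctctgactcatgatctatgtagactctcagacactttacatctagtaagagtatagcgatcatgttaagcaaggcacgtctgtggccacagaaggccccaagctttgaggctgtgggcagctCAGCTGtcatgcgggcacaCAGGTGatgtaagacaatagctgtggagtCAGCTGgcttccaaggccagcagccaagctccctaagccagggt
Chrnb1: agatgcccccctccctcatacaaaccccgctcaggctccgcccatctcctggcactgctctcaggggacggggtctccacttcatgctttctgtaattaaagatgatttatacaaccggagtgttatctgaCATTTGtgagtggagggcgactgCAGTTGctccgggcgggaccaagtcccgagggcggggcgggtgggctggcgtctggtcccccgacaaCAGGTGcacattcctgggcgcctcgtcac
Chrne: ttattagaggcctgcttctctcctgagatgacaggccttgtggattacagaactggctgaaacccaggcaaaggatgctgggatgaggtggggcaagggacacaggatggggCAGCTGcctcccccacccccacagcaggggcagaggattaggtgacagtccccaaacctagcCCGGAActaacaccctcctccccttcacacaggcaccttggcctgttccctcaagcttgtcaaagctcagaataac

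Chrng, Chrna1 and Chrnb1 each hold 3 E-boxes in this window, and Chrne holds 1 E-box and 1 N-box. In Chrng the E-boxes begin 155, 132 and 75 bases before the start, and those at 155 and 132 read CAGCTG. In Chrna1 they begin at 92, 73 and 44 bases, with CAGCTG at 92 and 44. In Chrnb1 they begin at 119, 96 and 29 bases, and none reads CAGCTG. The N-box of Chrne begins 76 bases before the start, downstream of its E-box at 138. Of 32851 promoter windows of this length, 66.2% hold at least 1 E-box, 12.2% hold 3 or more, 13.0% hold CAGCTG (which is also counted as an E-box) and 12.03% hold an N-box. Musk also holds 3 E-boxes, at 177, 100 and 68 bases, and its level did not pass the test. Promoters were found for 7 of the 10 genes, in 9 windows; the 2 windows of Agrn hold 0 and 1 E-boxes, as do the 2 of Dok7 in the other order. A match of letters describes the sequence and is not a measured binding site. Any link between these motifs and the size of the changes was not tested.

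The clustering genes, which act upstream of the receptor, stayed close to their WT levels. Agrn, the ligand, stood at 28.6, 36.2, 29.0, 29.2, 27.8 and 30.5 CPM in WT and at 29.5, 33.6, 33.4, 26.0, 35.8 and 29.4 CPM in mdx/mTR. The groups overlapped over most of their range. Its fold change was 1.03 with a 95% interval of 0.915 to 1.17 (edgeR adjusted p 0.65). Nerve and muscle make different splice forms of agrin, which gene counts do not separate.

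Lrp4, the agrin receptor, stood at 18.1, 25.9, 18.2, 23.3, 18.6 and 20.1 CPM in WT and at 26.3, 22.4, 25.9, 25.4, 20.8 and 23.7 CPM in mdx/mTR. All 6 mdx/mTR libraries lay above the WT mean, but only replicate 1 lay above all WT libraries. The fold change was 1.16 (95% interval 1.01 to 1.34; the Lrp4 log2 fold change was 0.22 ± 0.09 SE, edgeR adjusted p 0.073). The call depended on the libraries and the scaling: the adjusted p was 0.011 without WT replicate 2, 0.040 without mdx/mTR replicate 5, 0.040 under upper quartile scaling and 0.00619 where libraries were scaled by their totals only.

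Musk, the receptor kinase, stood at 15.7, 9.13, 11.6, 10.1, 16.6 and 12.4 CPM in WT and at 14.0, 9.28, 9.76, 10.4, 14.1 and 15.9 CPM in mdx/mTR. All 6 mdx/mTR values fell inside the WT range, which was wide. The fold change was 0.973 with a 95% interval of 0.757 to 1.25 (edgeR adjusted p 0.86). Its log2 fold change of -0.04 ranged from -0.13 to 0.05 when each library was left out in turn, so it had no stable direction; it was positive without WT replicate 1 or 5 and without mdx/mTR replicate 2, 3 or 4.

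Dok7, the adaptor of MuSK, stood at 18.9, 16.5, 24.9, 16.8, 19.0 and 22.1 CPM in WT and at 23.7, 26.7, 19.5, 22.4, 20.95 and 21.6 CPM in mdx/mTR. The Dok7 log2 fold change was 0.19 ± 0.10 SE, or 1.14-fold (95% interval 0.980 to 1.33; edgeR adjusted p 0.14), with 5 of 6 mdx/mTR libraries above the WT mean and 1 above all WT libraries. Without WT replicate 3, the highest of its group, the adjusted p was 0.032, and with library totals alone it was 0.014.

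Rapsn, the scaffold, had the narrowest interval of the 10. It stood at 33.7, 29.7, 35.1, 31.5, 34.3 and 33.1 CPM in WT and at 32.2, 33.6, 27.9, 33.7, 31.0 and 31.3 CPM in mdx/mTR. The fold change was 0.961 with a 95% interval of 0.884 to 1.05 (edgeR adjusted p 0.42), and its direction turned to 0.10 (log2) when libraries were scaled by their totals only. Only 4 exonic bases of Rapsn overlap another annotated gene, Gm13778 on the opposite strand; the span of Chrne overlaps 4930544D05Rik but shares 0 exonic bases with it.

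Ratios within a library compare subunits with clustering genes without any scaling between libraries. Of the 25 ratios of a subunit to a clustering gene, 21 were higher in mdx/mTR and passed (exact permutation, adjusted over the 45 pairs), and 17 had groups without overlap. The 25 ratios share genes, so they are not independent of each other or of the tests of each gene above. Those of Chrng rest on WT counts near 0. Chrna1 rose over Musk by 1.71 (log2), over Rapsn by 1.73, over Agrn by 1.62, over Dok7 by 1.47 and over Lrp4 by 1.44 (exact permutation, adjusted p 0.0041 for each). The 4 ratios that did not pass were those of Chrne to Agrn (0.33), Lrp4 (0.15), Musk (0.41) and Dok7 (0.17), with adjusted exact permutation p from 0.10 to 0.39. The ratio of Chrne to Agrn passed without mdx/mTR replicate 5 (difference 0.45, exact permutation, adjusted p 0.0078). Chrne did rise over Rapsn, by 0.43 (exact permutation, adjusted p 0.021).

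Among the 10 ratios between clustering genes, 1 passed, that of Dok7 to Rapsn, at 0.26 (exact permutation, adjusted p 0.031). It was lost in 7 of 12 tests that left out 1 library: WT replicates 1, 2, 4 and 5 and mdx/mTR replicates 1, 2 and 3, with an adjusted p up to 0.063. The ratio of Lrp4 to Rapsn, 0.28 with all libraries (exact permutation, adjusted p 0.11), was 0.38 without WT replicate 2 (adjusted p 0.027). The differences of these 10 ratios lay between -0.24 and 0.28.

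**Figure D4:**
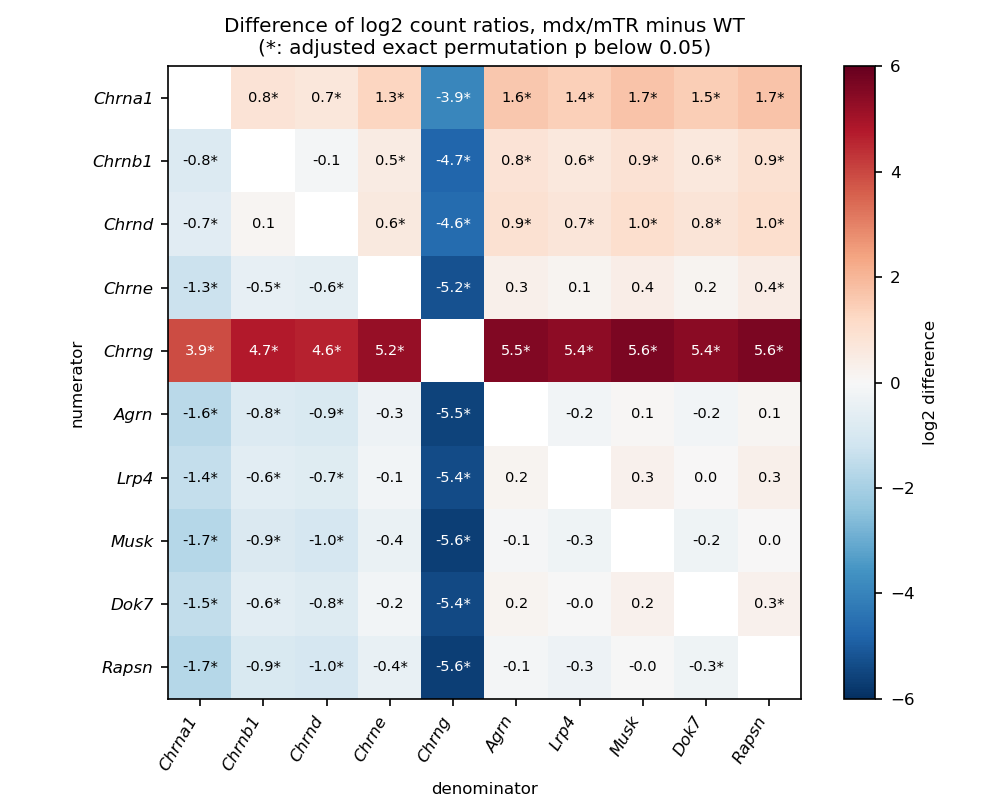
Difference in the log2 ratio of counts, mdx/mTR minus WT, for each gene in a row over each gene in a column; an asterisk marks an adjusted exact permutation p below 0.05. The Chrng row is positive throughout, and ratios between clustering genes lie between -0.24 and 0.28.

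In WT the order of levels per length was Rapsn (20.5 ± 1.22 CPM per kilobase), Chrnb1 (17.7 ± 1.82), Chrne (7.53 ± 0.906), Dok7 (7.09 ± 1.16), Agrn (4.16 ± 0.423), Musk (3.68 ± 0.871), Chrna1 (3.16 ± 0.258), Lrp4 (2.61 ± 0.404), Chrnd (1.29 ± 0.187) and Chrng (0.0242 ± 0.0162; SD, n = 6 each). The ranges of neighbours overlapped for Rapsn and Chrnb1, Chrne and Dok7, Agrn and Musk, Musk and Chrna1, and Chrna1 and Lrp4. In mdx/mTR Chrnb1 came first (32.2 ± 6.02), above Rapsn (19.7 ± 1.35), and Chrna1 moved from rank 7 to rank 3 (10.4 ± 3.08). Chrna1 lay below Agrn and Musk in WT by its mean and above every library of both in mdx/mTR. Chrng remained last, at 1.43 ± 0.863. With the union of exons as length, Agrn and Musk changed places in WT, and the other ranks were the same.

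Of the genes around these 10, acetylcholinesterase (Ache), which clears the transmitter from the cleft, went up from 42.7 ± 2.41 to 73.9 ± 9.67 CPM (SD, n = 6 each), a log2 fold change of 0.79 with an SE of 0.08 (edgeR adjusted p 5.6e-06). It belongs to a list of 8 genes of the synaptic basal lamina, of which 5 rose and 2 fell, with a median log2 fold change of 0.43. Over all genes tested, 25.0% rose and 23.4% fell. Nid2, a basement membrane nidogen, rose from 15.0 ± 3.33 to 30.1 ± 7.94 CPM (adjusted p 3.5e-04), and Lama5, a laminin alpha chain, fell (-0.32, adjusted p 9.1e-04, and -0.16 with adjusted p 0.088 under library totals alone). The other fall, of Lamb2 (-0.15, adjusted p 0.042), had no direction with library totals alone and was lost in 9 of the 12 fits that left out 1 library: those without WT replicate 2, 3, 4 or 6 and without mdx/mTR replicate 1, 2, 4, 5 or 6. Among the rises, that of Lama4, another laminin alpha chain (0.46, adjusted p 0.030), was lost in 7 of the 12, with an adjusted p up to 0.074: those without WT replicate 1, 3, 4, 5 or 6 and without mdx/mTR replicate 2 or 5. With library totals alone 6 of the 8 passed as higher and 0 as lower.

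In a list of 24 genes of the postsynaptic scaffold and its signalling, 22 were tested, 10 rose, 7 fell, and the median log2 fold change was 0.07. These counts stand beside 25.0% higher and 23.4% lower over all genes tested. Erbb2, a receptor of the neuregulin pathway, rose (1.04 ± 0.12 SE, edgeR adjusted p 2.1e-05). Cdk5r1, the activator of the kinase Cdk5, rose from 0.256 ± 0.107 to 2.26 ± 1.33 CPM (3.13, adjusted p 4.3e-05). It had 4 to 15 counts per WT library and 57 to 216 per mdx/mTR library. The size of this rise therefore rests on few WT counts. Scn4a, the sodium channel of adult muscle that is dense at the junction, fell from 965 ± 62.6 to 590 ± 88.6 CPM (-0.71, adjusted p 4.8e-05). With library totals alone 13 of the 22 were higher and 3 lower. In the 12 fits that each left out 1 library the falls numbered 4 to 6, with 4 without WT replicate 5, and the rises 9 to 10. The falls of Gabpa and Syne1 (edgeR adjusted p 0.047 for each) were lost in 9 and 7 of the 12. Among the rises, that of Cdk5 (edgeR adjusted p 0.033) was lost in 5.

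A list of 13 genes known to respond to denervation or to muscle activity included 12 tested genes, of which 8 rose and 2 fell, with a median log2 fold change of 0.94. Among all genes tested, the shares were 25.0% higher and 23.4% lower. Myog, encoding the E-box factor myogenin, rose from 2.87 ± 0.561 to 15.8 ± 7.27 CPM (2.46, SE 0.28, edgeR adjusted p 1.7e-05). Runx1, a transcription factor induced in denervated muscle, rose from 3.16 ± 0.854 to 19.5 ± 4.64 CPM (2.63, adjusted p 3.8e-07). Dach2, known as a repressor of Myog, fell from 9.71 ± 0.830 to 0.396 ± 0.0709 CPM (-4.60, adjusted p 1.0e-11). Fbxo32, an atrophy ubiquitin ligase, was the other gene that fell (-0.57, adjusted p 0.024; adjusted p 0.061 without WT replicate 1, and 0.052 with library totals alone). Some of these genes also mark myoblasts and new fibres.

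Of the 11 remaining nicotinic subunits, known mainly from neurons, 5 passed the filter on low counts. Chrna3, Chrna6, Chrnb3 and Chrnb4 had 0 counts in all 12 libraries, which allows up to 0.0837 CPM in a library. Of those 5, Chrna2 fell from 1.24 ± 0.732 to 0.0843 ± 0.121 CPM (-4.05, edgeR adjusted p 1.0e-04) and Chrna4 from 1.38 ± 0.528 to 0.137 ± 0.0637 CPM (-3.33, adjusted p 4.3e-06). Chrna2 had 24 to 81 counts per WT library and 1 to 12 per mdx/mTR library, and Chrna4 had 31 to 81 and 3 to 10. Both passed the filter on low counts only through the WT libraries. The sizes of their fitted falls therefore rest on mdx/mTR counts near 0. Chrnb2, with 7 to 10 counts per WT library, rose from 0.214 ± 0.0351 to 0.525 ± 0.240 CPM (1.31, adjusted p 0.0033). The third to fall was Chrna9 (-1.31, adjusted p 0.010). Chrna10 was the most abundant of the 11 and stood above Chrna1 and Chrne in mean WT level, not corrected for length, at 17.3 ± 2.62 CPM in WT libraries and 16.4 ± 4.12 CPM in mdx/mTR (edgeR adjusted p 0.69).

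Markers of new fibres, macrophages and fibro-adipogenic progenitors rose as the subunits did. The lists of satellite cell, mature fast fibre and Schwann cell markers were mixed, and that of endothelial markers had only falls. No marker of motor nerve terminals passed with all libraries. The part of any of these lists in the subunit changes was not tested. For the counts that follow, the shares over all genes tested were 25.0% higher and 23.4% lower. Of 6 markers of new fibres, 6 rose; they summed to 205 to 478 CPM in WT and 420 to 1481 CPM in mdx/mTR, the most in mdx/mTR replicate 5. The largest fitted rise among them was that of Tmem8c, the symbol of the table for myomaker, at 7.37 (edgeR adjusted p 1.8e-06). Tmem8c had only 0 to 6 counts per WT library, while mdx/mTR libraries held 203 to 1172. Like Chrng, it passed the filter on low counts only through the mdx/mTR libraries. The size of its fitted rise therefore rests on WT counts near 0. All 7 macrophage markers and all 4 markers of fibro-adipogenic progenitors rose, with sums of 55.2 to 91.3 and 131 to 380 CPM for macrophages and 514 to 838 and 1093 to 1933 CPM for the progenitors. Of 5 satellite cell markers, 3 rose (Myf5, Vcam1 and Cd34), Cdh15 fell (-0.37, edgeR adjusted p 0.012) and Pax7 did not pass (0.13, adjusted p 0.44). The rise of Myf5 (0.54, edgeR adjusted p 0.025) was lost in 4 of the 12 fits that left out 1 library. It was also lost with a replicate block (edgeR adjusted p 0.071). With library totals alone 0 of the 5 fell. Of 4 endothelial markers, 2 fell; the number was 1 with library totals alone, 3 with DESeq2 or a replicate block, and 4 without WT replicate 1 or without mdx/mTR replicate 2. Of 8 mature fast fibre markers, Myh4 fell (-0.62, adjusted p 0.0027), Mylpf rose (0.42, adjusted p 0.0032) and 6 did not pass. The falls among these 8 numbered 2 without WT replicate 2, without mdx/mTR replicate 6 or with a replicate block, and 3 without mdx/mTR replicate 1, with DESeq2 or with limma-voom. With library totals alone 2 of the 8 rose.

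On the nerve side, 4 of 6 Schwann cell markers fell and 1, Ngfr, rose (0.90, edgeR adjusted p 0.0020). Falls were called for 23.4% of all genes tested, and rises for 25.0%. Sox10, a transcription factor of the Schwann cell lineage, fell from 1.62 to 0.881 CPM as group means (-0.88, adjusted p 0.0022). With library totals alone 3 of the 6 fell. The fall of Cdh19 (-0.50, edgeR adjusted p 0.040) was lost in 7 of the 12 fits that left out 1 library, with an adjusted p up to 0.085. It was also lost with a replicate block (edgeR adjusted p 0.055). The 6 markers summed to 21.9 to 28.7 CPM in WT, against 15.4 to 24.4 CPM in mdx/mTR, so the ranges overlapped. Motor nerve terminals left almost no RNA in these libraries: Chat, Slc18a3 and Slc5a7, which define cholinergic endings, had 0 counts in all 12, and the 10 terminal markers summed to 0.392 to 1.42 CPM in WT and 0.776 to 1.26 CPM in mdx/mTR. Of these 10, only Prph could be tested; it did not pass with all libraries (0.46, adjusted p 0.25) and passed as higher without WT replicate 2. Whether fibres had lost their nerve could therefore not be read from nerve transcripts.

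**Figure D5:**
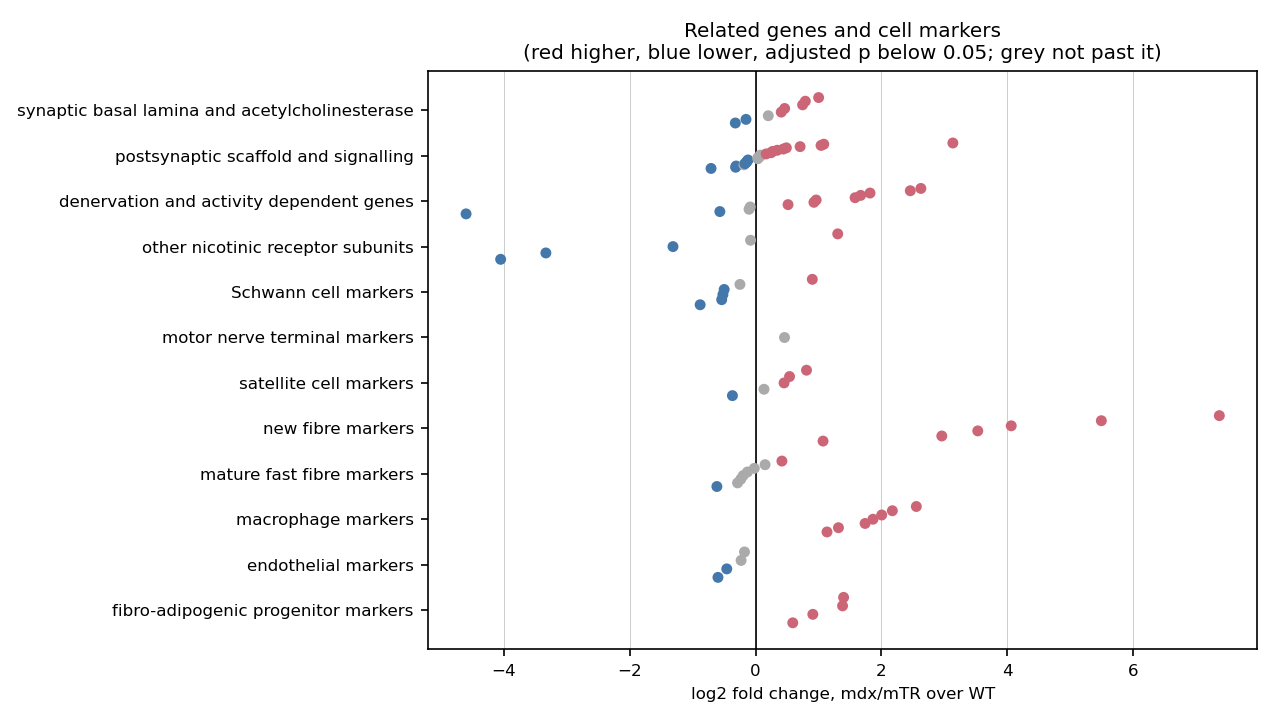
Log2 fold change, mdx/mTR over WT, of each tested gene of the lists of junction genes and cell markers (1 row a list, 1 point a gene; vertical spread within a row only separates points). Red points rose, blue points fell and grey points did not pass an adjusted p of 0.05; all new fibre and macrophage markers lie to the right of 0, and Dach2 is the point farthest to the left at -4.60.

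The genes whose values over the 12 libraries were most like those of Chrng were Tmem8c, Chrna1, Map1b, Myh3 and Dclk1. Likeness was the root mean square difference of log2(CPM + 0.5) after each gene was brought to a mean of 0 and an SD of 1 over the 12 libraries. It therefore includes the difference between the groups, and likeness within a group was not tested. The root mean square difference from Chrng was 0.0915 for Tmem8c, 0.0971 for Chrna1, 0.136 for Map1b, 0.145 for Myh3 and 0.149 for Dclk1, against a median of 1.33 over all tested genes. Chrna1 was thus the second most alike of all tested genes, Chrnd came at rank 213 and Chrne at rank 4659. All 5 genes most like Chrng had their highest mdx/mTR value in replicate 5, as Chrng did. The profile of Chrne was most like those of Gabrr2 (0.338), Lamtor4 (0.356), Mylpf (0.381), Atp6v1e1 (0.397) and 2310045N01Rik (0.414). All 5 of these had their highest mdx/mTR value in replicate 1, as Chrne did. Both sets were picked by likeness over these same 12 libraries, so a shared highest library follows largely from the choice.

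In the authors' deposited table the same division appears. It gives log2 fold changes of 4.22 for Chrng, 1.63 for Chrna1, 0.94 for Chrnd, 0.83 for Chrnb1 and 0.37 for Chrne, with adjusted p of 0.0083 for Chrne and smaller for the other 4. For Lrp4, Dok7, Rapsn, Agrn and Musk the authors' deposited table gives adjusted p of 0.081, 0.17, 0.40, 0.74 and 0.83. The value of the authors' deposited table for Chrng is smaller than the 5.81 found here.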

How the data were processed

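Strand handling and the annotation used for counting are not given in the sources used here. Per the labels' protocols, RNA of the tibialis anterior came from a miRNEasy kit and went into libraries by standard Illumina methods; the submitters' processing notes name FastQC, STAR, DESeq2 and the build mm10, with no roles. The authors deposited whole-number counts per gene symbol, 1 column per library, with 0 columns left unmatched. The second deposited table gives, per the file headers, the mean signal of each gene after normalization, a log2 fold change, a test score and p-values.

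Counts were tested with edgeR 4.0.16 in R 4.3.3: filterByExpr (13937 genes, 99.97% of counts), TMM scaling, a quasi-likelihood model with group as the only term, and Benjamini-Hochberg adjustment over all genes at 0.05. Ratios of counts + 0.5 went through exact permutation tests, two-sided (Python 3.11.15, numpy 2.4.6, smaller tail doubled), adjusted over 45 pairs. Wilson and exact intervals are from scipy 1.17.1. Gene models are GENCODE M21 and promoters RefSeq GRCm38.p6, both the mm10 assembly. The fit and the exact test were tested on simulated data.

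The 10 genes, the lists and the rule for named genes were chosen with earlier results of these data known. The rule names all 10 genes, the 3 smallest p-values of each list and the 5 most alike genes. One gene of the marker lists is not reported here and was taken out of its list. Other genes named, such as Lamb2, Lama4, Prph, Fbxo32, Chrna9, Chrna10 and Pax7, were chosen after their values were seen. Replicate numbers are shared by the groups, and whether they pair libraries is not known. Deviations of libraries of the same number from their group means correlated at 0.33 and 0.27 for numbers 1 and 2. For numbers 3 to 6 the correlation was -0.14 to -0.02. The main tests treat the libraries as unpaired. No 2 replicates of a group agreed within sampling noise (chi-square per degree of freedom at least 9.14). Alternatives were other scalings, filters, tests (DESeq2 1.42.0, limma 3.58.1 voom), thresholds and pseudocounts, a replicate block and each library left out in turn.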

Additional observations from a re-analysis of the deposited data

Results flagged for a closer look

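The highest and lowest library of each group of 6 was compared with its neighbour, for the 10 genes and for the count ratio of Chrng to Chrne. The gap, as a share of the range of the group, passed Dixon's 95% critical value in 6 of 22 groups. Chance alone would give about 1.1, and Chrng enters both its own level and the ratio. In mdx/mTR replicate 5, Chrng stood at 8.60 CPM while the rest of its group lay between 2.16 and 4.25 CPM. Chrnd stood at 11.01 CPM there, against 6.17 to 7.98 CPM. The same library had 0.729 Chrng counts per Chrne count, against 0.104 to 0.267. In WT replicate 5, Chrng stood at 0.157 CPM against 0.0278 to 0.0558 CPM, which rests on 6 counts against 1 or 2. Its count ratio of Chrng to Chrne was 0.0121, against 0.00225 to 0.00525 in the other WT libraries. In WT replicate 2, Agrn stood at 36.2 CPM against 27.8 to 30.5 CPM.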

How the results depend on the processing

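The rises of Chrna1, Chrnb1, Chrnd and Chrng kept their direction and call under each of 21 alternatives, with log2 fold changes of 1.55 to 1.89, 0.80 to 1.03, 0.84 to 1.16 and 5.42 to 6.25. Chrne kept its direction (0.29 to 0.53) and lost its call only at an adjusted p of 0.01 (0.016). The number of the 10 genes called was 4 to 7; library totals alone, which move the median over the whole table to 0.17 (log2) and make 5596 of 7156 calls higher in place of 3479 of 6736, added Lrp4 and Dok7. The Musk log2 fold change turned positive when scaled by the upper quartile (0.000478) or by library totals alone (0.118). It spanned -0.131 to 0.0538 when 1 library was left out, and was positive without WT replicate 1 (0.0312) or 5 (0.0538) or mdx/mTR replicate 2 (0.0303), 3 (0.0158) or 4 (0.00364). The Rapsn log2 fold change was 0.10 with library totals alone. For these changes the cause was not tested. The log2 ratio of Chrng to Chrne differed by 4.96 with a pseudocount of 1, by 5.47 with 0.1, and by 4.88 to 5.44 when 1 library was left out; the number of pairs called was 29 to 31. With a replicate block (sign flips by number) the difference was 5.22 with p 0.03125, the smallest exact p that 6 pairs allow, 30 pairs were called, and the edgeR block called 5 of the 10 genes and 6420 genes in all; it changed no call among the 10. Depth limits Chrng in WT, where 5 of 6 libraries had 3 counts or fewer.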
